A study of Homo sapiens with 9 samples.

Results

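OGDHL was put back into OGDHL-knockout prostate cancer cells in 2 forms, and here the 6 libraries carrying either form were compared as a single group with the 3 libraries carrying eGFP. The question the grouping addresses is what re-expression of OGDHL does to the transcriptome whether or not the protein is addressed to mitochondria. All 9 libraries come from 16D, a castration-resistant prostate cancer line. Every group shared the knockout of OGDHL, an adaptation of 6 weeks to enzalutamide, an inhibitor of the androgen receptor, and culture in 10 µM enzalutamide. The control group was transduced with eGFP, a fluorescent protein. One rescue group received full-length OGDHL (FL) and the other OGDHL without its mitochondrial targeting sequence (dMTS), both in a version that the knockout guide does not cut. Each of the 3 groups had 3 libraries. Cells with intact OGDHL and cells without enzalutamide are not among the groups compared here, so the control is a knockout line and not an unedited one. The labels do not say whether the 3 libraries of a group came from separate transductions or cultures, so p-values measure the spread between these libraries, which may be technical.

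The comparison covered 13231 of the 36650 genes in the table (36.1%), those with at least 1 transcript per 1000000 (TPM) in at least 3 of the 9 libraries, and 8858 of them were protein coding. Levels below are scaled TPM, the authors' TPM after each library was rescaled to the same median over these genes. The authors divided by the genomic span of a gene, introns included, so genes with long introns read low and levels of different genes are not set against each other. Fold changes are differences of log2(scaled TPM + 1), either form minus eGFP, and they understate the change of genes with low levels.

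OGDHL is a paralog of OGDH, the E1 component of the mitochondrial 2-oxoglutarate dehydrogenase complex. The complex works in the tricarboxylic acid (TCA) cycle, where E1 decarboxylates 2-oxoglutarate, DLST (E2) passes the succinyl group to coenzyme A and DLD (E3) regenerates the lipoyl cofactor. Its substrate 2-oxoglutarate links the cycle to glutamate and to nitrogen metabolism, and is a cosubstrate of dioxygenases that hydroxylate proteins and demethylate histones and DNA. A targeting sequence at the N terminus directs such enzymes into the mitochondrial matrix.

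The estimated depth of the libraries was 86.3 to 121 M reads (M, 1000000). The 37 mitochondrially encoded genes took 54.9% to 66.0% of TPM. Their share was 63.9% ± 1.96 (SD, n = 3) with eGFP and 62.7% ± 3.94 (SD, n = 6) with either form, which did not differ by an exact permutation test (two-sided p = 0.833, smallest possible 0.0238). The lowest share was that of dMTS library 2, which also had the largest scaling factor. The 19 luminal epithelial markers, 18 of them at 1 TPM or more, summed to 927 to 967 scaled TPM with eGFP and 918 to 950 with either form. The 3 basal markers measured summed to at most 0.625, the 4 immune markers to at most 0.216 and the 3 endothelial markers to at most 0.0309 scaled TPM in any library, so defining markers of these other cell types were near 0. Of 5 fibroblast markers COL1A1 alone reached 1 TPM.

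OGDHL itself (ENSG00000197444, chr10:49734641-49762379, minus strand, GRCh38) checked the labels and was the gene that rose. Its level was 1.20, 1.19 and 1.23 scaled TPM in the 3 eGFP libraries. FL libraries 1 to 3 held 225, 172 and 263 scaled TPM, and dMTS libraries 1 to 3 held 82.7, 144 and 126. Every rescue library was far above every control, and no dMTS library reached the lowest FL library. Some OGDHL RNA was therefore present in the knockout, as 883 to 1163 estimated reads per eGFP library, which says nothing about protein. The mean was 169 ± 66.0 (SD, n = 6) with either form and 1.20 ± 0.0205 (SD, n = 3) with eGFP, and the exact two-sided permutation p was 0.0238, the smallest that 6 against 3 allows. The log2 fold change was 6.17 (SE 0.31, limma adjusted p = 0.000135). FL exceeded dMTS by 0.91 (95% interval 0.42 to 1.4) on the log2 scale, with a limma adjusted p of 0.182 for that difference.

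OGDHL was the single gene called by limma with both forms as a single group at an adjusted p under 0.05, 0.00756% of the genes tested. The next smallest limma adjusted p was 0.113. Without adjustment 2469 genes had p under 0.05 (18.7%), 1123 of them higher (8.49%) and 1346 lower (10.2%) with either form. In 1681 genes (12.7%) the 6 rescue libraries did not overlap the 3 eGFP libraries, 735 higher (5.56%) and 946 lower (7.15%). Treating the forms as a single group puts any difference between them into the error term. A second fit therefore kept 3 groups, took the spread within each form and compared the mean of the forms with eGFP. This 3-group fit called 275 genes (2.08%), of which 110 were higher (0.831%) and 165 lower (1.25%). Counts of 3-group calls within a gene list are to be read against these shares. The standard error of OGDHL was 0.31 with a single rescue group and 0.18 with 3 groups, and the median residual SD over genes was 0.0732 and 0.0687.

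How many genes the 3-group fit called depended on single libraries. Without eGFP library 2 the 3-group fit called 6 genes, without eGFP library 3 it called 10 and without FL library 1 it called 26. Leaving out eGFP 1, FL 2, FL 3, dMTS 2 or dMTS 3 left 50 to 57 genes, and leaving out dMTS 1 raised the count to 1396. All 275 kept their sign in all 9 of these fits, whereas 6 were called in every one. These 6 were OGDHL, LINC00161, H2AC19, IL36RN, H2BC21 and GPX8, and they are named because so few passed, after their values were seen. On TPM as deposited the same fit called 11 genes, and with the replicate number as a block it also called 11. Of the genes named below, only OGDHL passed with the forms as a single group, so their values are given as levels and differences. Where an adjusted p is called 3-group, it is limma's adjusted p from that alternative fit, and the genes picked through it were chosen after their values were seen.

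**Figure D1:**
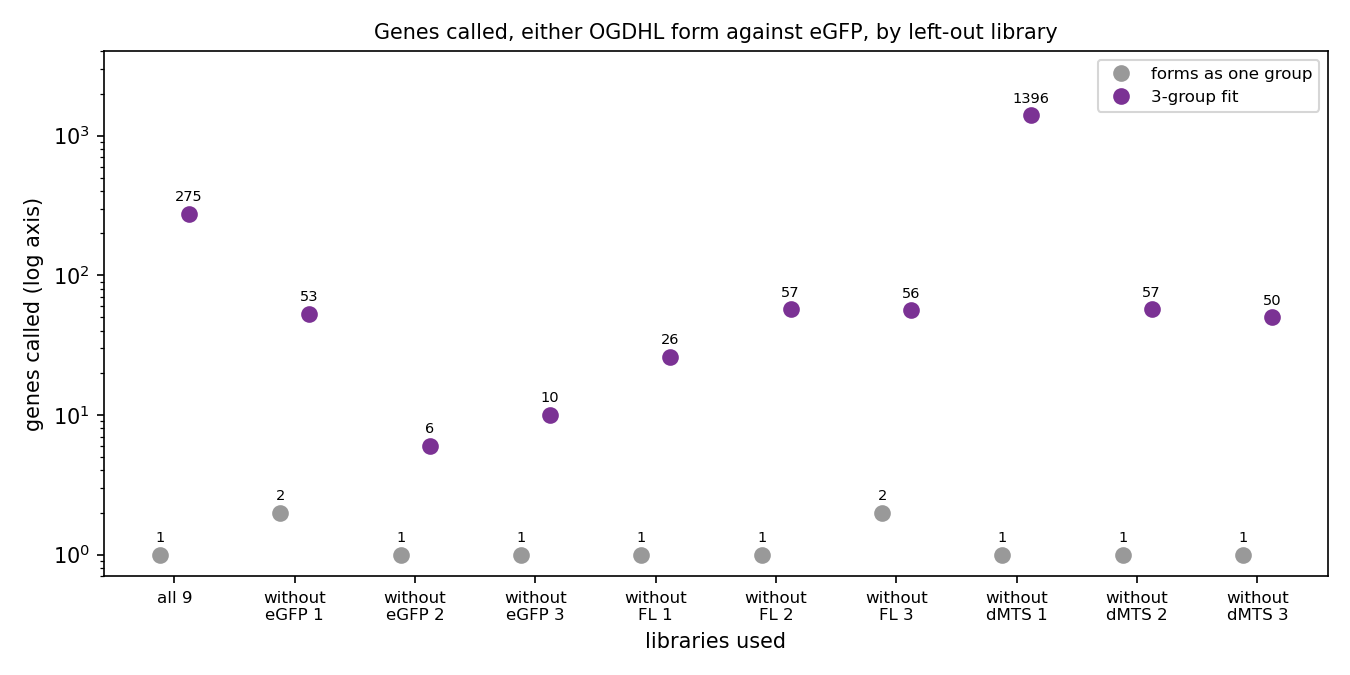
Number of genes called by limma (adjusted p under 0.05, log axis) for either OGDHL form against eGFP with all 9 libraries and with each library left out. Grey points treat both forms as a single group and stay at 1 or 2, while purple points, the 3-group fit, run from 6 without eGFP 2 to 1396 without dMTS 1.

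Most of the 275 differences were small. The median log2 fold change was 0.20 among the 110 higher genes and -0.24 among the 165 lower ones, and 8 and 11 of them exceeded 0.5 in size. Both sets leaned towards protein-coding genes, at 82.7% and 83.6% against 66.9% of all genes tested. Pseudogenes made up 8.18% and 3.64% of them against 16.1% of all. The median estimated read number was 7172 for the higher and 3595 for the lower set, against 2551 over all genes.

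Genes of protein folding in the endoplasmic reticulum were the list with the most members higher in the 3-group fit. Several of them are textbook targets of the unfolded protein response, in which ATF6 and XBP1 bind the endoplasmic reticulum stress element. That element, CCAAT and CCACG with 9 bases of any kind between them, was searched on both strands in RefSeq promoters (GRCh38.p14, 250 bases before to 50 after the start). It was found in 7 of the 27 promoters matched among 29 genes tested (25.9%) and in 27 of 35116 promoters in all (0.0769%). Because the list includes textbook targets, its share comes with the choice of list and is no result about these data. The list was counted once per gene symbol, and the 35116 are all promoter entries, those of the list included. The matches of 6 of the 7 genes are shown with their surroundings because their levels are described next. The other gene, CRELD2, had a log2 fold change of 0.08 with a 3-group adjusted p of 0.379. Sequences run 5′ to 3′ on the strand of the gene, and capitals mark the element, which begins CGTGG where it lies on the opposite strand.
HSP90B1, chr12:103930186-103930264, plus strand: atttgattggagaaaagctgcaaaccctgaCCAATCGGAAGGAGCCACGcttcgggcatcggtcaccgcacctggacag
HSP90B1, chr12:103930291-103930369, plus strand: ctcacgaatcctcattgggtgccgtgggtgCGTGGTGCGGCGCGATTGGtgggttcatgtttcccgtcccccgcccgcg
HSPA5, chr9:125241361-125241439, minus strand: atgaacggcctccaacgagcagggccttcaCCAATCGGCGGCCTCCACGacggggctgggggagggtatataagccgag
XBP1, chr22:28800573-28800651, minus strand: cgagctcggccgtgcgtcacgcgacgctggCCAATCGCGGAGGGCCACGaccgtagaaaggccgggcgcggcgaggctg
SERP1, chr3:150546680-150546746, minus strand: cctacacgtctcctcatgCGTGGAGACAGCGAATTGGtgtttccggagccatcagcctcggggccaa
CANX, chr5:179698748-179698826, plus strand: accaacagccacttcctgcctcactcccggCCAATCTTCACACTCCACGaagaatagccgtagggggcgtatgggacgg
CALR, chr19:12938359-12938432, plus strand: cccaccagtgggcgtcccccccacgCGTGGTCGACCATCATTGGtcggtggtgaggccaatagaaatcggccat

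HSP90B1, the GRP94 chaperone, stood at 490, 460 and 446 scaled TPM with eGFP, at 538 in each FL library and at 587, 623 and 638 with dMTS. The groups did not overlap, and the dMTS libraries were the highest. Its log2 fold change was 0.31 (SE 0.07, limma adjusted p = 0.141, 3-group 0.0168). PDIA4, a disulfide isomerase, read 100.4, 98.9 and 99.6 with eGFP, 114, 112 and 109.9 with FL, and 120.5, 126 and 125 with dMTS. The 3 eGFP libraries lay close together and both forms lay above them (0.24, SE 0.05, limma adjusted p = 0.122, 3-group 0.0102). HSPA5, the BiP chaperone, differed by 0.20 (3-group 0.0289), PDIA6 by 0.20 (0.0151), MANF by 0.21 (0.0451), HERPUD1 by 0.22 (0.0429), SERP1 by 0.17 (0.031), ERO1A by 0.15 (0.046) and XBP1 by 0.14 (0.0389). These are the 9 of 29 members called higher in the 3-group fit (0.831% of all genes), and none was lower (1.25% of all genes). Unadjusted p was under 0.05 in 15 of 29, all higher (51.7% against 8.49% of all genes), and 14 of 29 did not overlap the controls (5.56% of all genes). The list's median was 0.14 (0.00 over all genes), 0.07 for FL and 0.19 for dMTS against the same controls. CANX, a lectin chaperone, was 0.20 higher with a 3-group adjusted p of 0.133, and CALR, its soluble relative, 0.10 higher (0.123). The promoters shown above thus belong to genes with and without a 3-group call. HSP90B2P, a processed pseudogene of HSP90B1, was also higher (0.39, 3-group 0.046), which is uncertain because reads may be shared between the copies.

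Lipid synthesis genes included the 2 protein-coding genes with the largest values after OGDHL among the genes called higher in the 3-group fit. SCD, which makes monounsaturated fatty acids, read 144, 132 and 138 scaled TPM with eGFP, 174, 155 and 181 with FL, and 203, 266 and 267 with dMTS. INSIG1, the sterol-regulated anchor of SREBP processing, read 40.3, 37.5 and 41.2, then 48.4, 45.0 and 50.5, then 58.8, 67.6 and 72.3 in the same order. In both genes the order was eGFP, FL, dMTS with no overlap, and dMTS 1 was the lowest of its group. The log2 fold change was 0.56 for SCD (SE 0.17, limma adjusted p = 0.182, 3-group 0.0348) and 0.49 for INSIG1 (SE 0.15, limma adjusted p = 0.167, 3-group 0.0212). FADS2, a fatty acid desaturase, differed by 0.36 (3-group 0.0212), and the acyl-CoA synthetases ACSL1 and ACSL3 by 0.43 (0.0485) and 0.29 (0.021). Of 20 fatty acid synthesis genes tested these 4 were called higher in the 3-group fit and DGAT2, which forms triglycerides, was called lower (-0.20, 3-group 0.0124). Among 25 genes of cholesterol synthesis and its regulator SREBP2, 5 were called higher there: INSIG1, MSMO1 (0.24), CYP51A1 (0.23), FDPS (0.17) and HSD17B7 (0.16). TM7SF2, a sterol reductase, was called lower (-0.23, 3-group 0.046). Unadjusted p was under 0.05 and the difference positive in 10 of the 20 and 12 of the 25 (8.49% of all genes), and negative in 3 of the 20 and 1 of the 25 (10.2% of all genes). The list medians were 0.10 and 0.11.

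Of 30 targets of ATF4, the transcription factor of the integrated stress response, 4 were called higher in the 3-group fit, 2 of which also act in serine and one-carbon metabolism. PSAT1, the transaminase of serine synthesis that turns glutamate into 2-oxoglutarate, read 15.9, 15.9 and 15.5 scaled TPM with eGFP, 18.1, 17.4 and 17.7 with FL, and 20.02, 20.8 and 19.9 with dMTS. The 3 groups stood apart without overlap (0.25, SE 0.06, limma adjusted p = 0.142, 3-group 0.0102). MTHFD2, a mitochondrial folate enzyme, differed by 0.22 (3-group 0.0147) and ASNS, asparagine synthetase, by 0.15 (0.0323). CEBPG, a partner of ATF4, differed by 0.16 (0.0205). The 4 are PSAT1, MTHFD2, ASNS and CEBPG, where 0.831% of all genes were called higher. No ATF4 target was called lower, and PSAT1 and MTHFD2 also belong to the serine and folate list. The medians of the ATF4 and the serine and folate lists were 0.09 and 0.07, and 11 of 30 and 5 of 15 had an unadjusted p under 0.05 and a positive difference (8.49% of all genes). None of the 30 and 1 of the 15 had one with a negative difference (10.2% of all genes).

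IGFBP3 had the largest lower value of the 13231 genes. It encodes a secreted protein that binds insulin-like growth factors (chr7:45912245-45921874, minus strand). The level was 85.7, 86.1 and 79.4 scaled TPM with eGFP, 50.4, 49.6 and 51.4 with FL, and 33.3, 19.8 and 20.95 with dMTS. Both forms lay below all controls, FL tightly and dMTS lower and more spread. The log2 fold change was -1.24 (SE 0.33, limma adjusted p = 0.154, 3-group 0.0128), made up of -0.72 for FL and -1.76 for dMTS. The 1.04 between the forms (95% interval 0.66 to 1.42, limma adjusted p = 0.12) went into the error of the single-group fit. The other 3 genes tested of the insulin-like growth factor axis, IGF2R, IGFBP2 and STC2, differed by 0.01, -0.07 and 0.10, none of them called. With IGFBP3 included, 2 of the 4 were lower and 1 higher at an unadjusted p under 0.05 (10.2% and 8.49% of all genes). The receptor gene IGF1R did not reach the TPM minimum, and voom with 3 groups called it lower (-0.27, limma-voom adjusted p = 0.0137).

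Of 11 feedback inhibitors and targets of MAPK signalling 3 were called lower and 1 higher in the 3-group fit (1.25% and 0.831% of all genes). SPRY4, a Sprouty inhibitor of receptor tyrosine kinase signalling, read 5.35, 5.32 and 4.90 scaled TPM with eGFP, 3.71, 3.84 and 3.78 with FL, and 2.17, 1.61 and 1.51 with dMTS. DUSP2, a phosphatase of MAP kinases, read 16.9, 17.9 and 17.8, then 13.1, 11.9 and 13.1, then 10.7, 8.56 and 8.38 in that order. Neither gene had an overlap between any groups. SPRY4 differed by -0.77 (SE 0.24, limma adjusted p = 0.181, 3-group 0.00699) and DUSP2 by -0.65 (SE 0.14, limma adjusted p = 0.136, 3-group 0.0111). DUSP1 was also called lower in the 3-group fit (-0.17, 0.0454), and DUSP4 was called higher (0.31, 0.0252). With 11 genes of this list tested, 5 had an unadjusted p under 0.05 and a negative difference (45.5% against 10.2% of all genes) and 1 a positive one, at a median of -0.09.

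Among ID proteins, which block basic helix-loop-helix factors and are targets of BMP-SMAD signalling, ID2 and ID3 were called lower in the 3-group fit. ID3 read 141, 154 and 154 scaled TPM with eGFP, 111, 115 and 114 with FL, and 97.9, 70.5 and 69.1 with dMTS. ID2 read 14.2, 13.8 and 14.1, then 10.9, 11.2 and 11.4, then 10.2, 7.99 and 7.65. All rescue libraries were below all controls, and dMTS 1 was the dMTS library nearest to FL in both genes. ID3 differed by -0.66 (SE 0.18, limma adjusted p = 0.16, 3-group 0.0299) and ID2 by -0.48 (SE 0.12, limma adjusted p = 0.148, 3-group 0.0299). ID1 differed by -0.71 and ID4 by -0.35 with 3-group adjusted p of 0.063 and 0.0954. Of 11 genes tested in this list 6 had an unadjusted p under 0.05, all lower (10.2% of all genes), and the median was -0.22. Among 17 immediate-early genes JUNB (-0.37, 3-group 0.0318) and BTG2 (-0.21, 0.0361) were called lower in the 3-group fit, and FOS differed by -0.25 (0.0503). The median of that list was -0.13, and 7 of 17 had an unadjusted p under 0.05, all lower (10.2% of all genes).

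**Figure D2:**
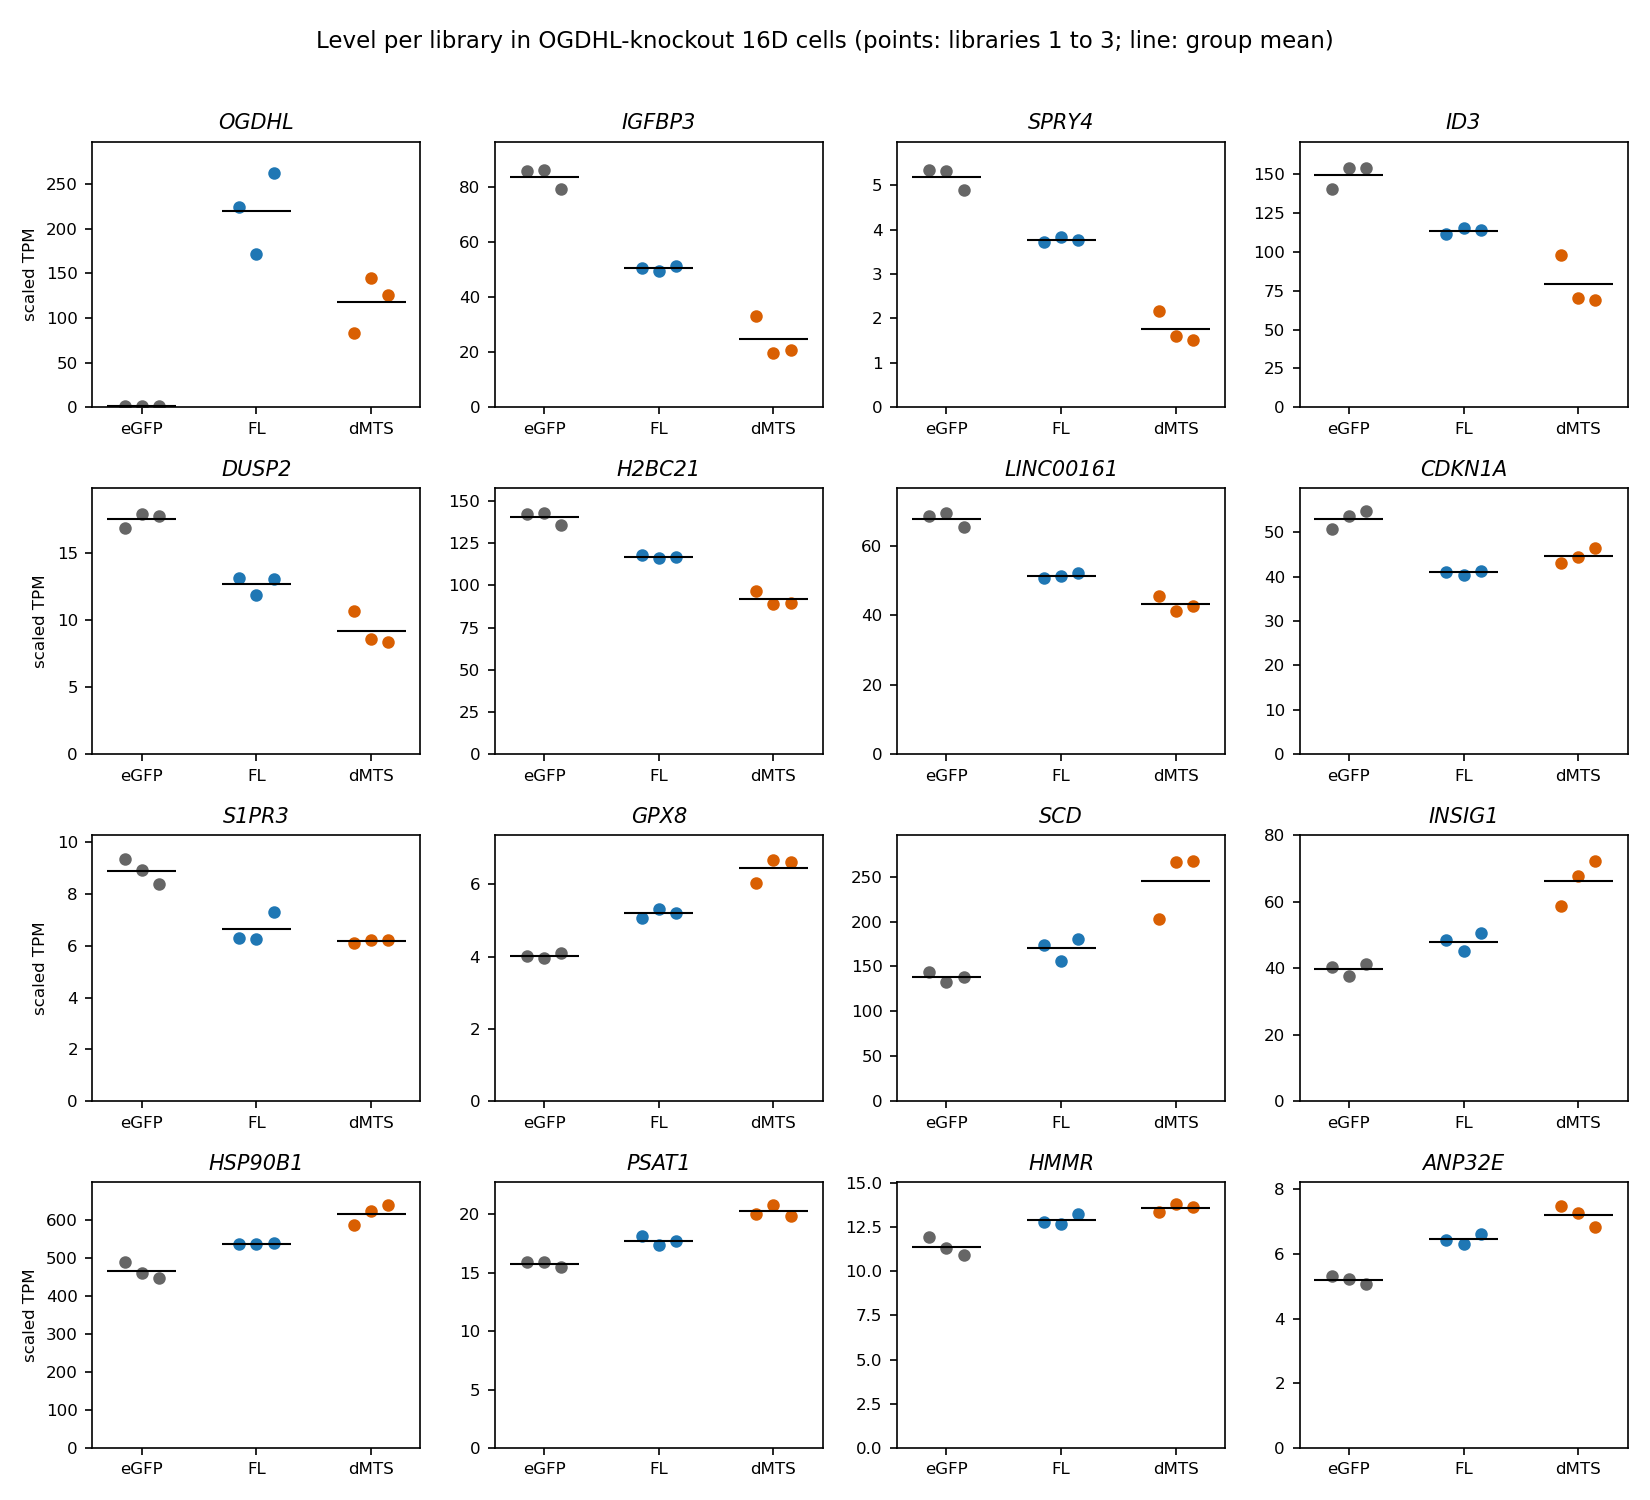
Scaled TPM of 16 genes in each library (points, libraries 1 to 3 from left to right, axis from 0) with the group mean as a line, for eGFP, full-length (FL) and dMTS OGDHL. OGDHL goes from about 1.20 with eGFP to 82.7 or more in every rescue library, and IGFBP3 lies below its eGFP range in all 6. In CDKN1A the FL mean lies further from the eGFP mean than the dMTS mean does, unlike in most of the others.

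Of 29 replication-dependent histone genes, whose transcripts end in a stem-loop in S phase and can also be polyadenylated, 8 were called lower in the 3-group fit and none higher. H2BC21 (chr1:149884459-149886682, minus strand) read 142, 143 and 136 scaled TPM with eGFP, 118, 116 and 117 with FL, and 96.6, 89.0 and 89.8 with dMTS. H2BC12 read 124, 128 and 131, then 104, 103 and 109, then 91.3, 96.2 and 93.4. The 3 groups were separate in both genes, at -0.44 for H2BC21 (SE 0.11, limma adjusted p = 0.148, 3-group 0.00291) and -0.36 for H2BC12 (SE 0.06, limma adjusted p = 0.113, 3-group 0.00449). The 8 are these 2, H2AC6, H2AC17, H2AC18, H2AC19, H3C6 and H4C8, where 1.25% of all genes were called lower. H2AC18 and H2AC19 are near-identical copies on chromosome 1, so how reads were divided between them is uncertain. The list's median was -0.25, with -0.12 for FL and -0.36 for dMTS, and 14 of 29 had an unadjusted p under 0.05 and a negative difference (48.3% against 10.2%). H4C1 went the other way, at 0.19. The library kit enriches polyadenylated RNA. The list of 33 genes of S phase and DNA replication had a median of 0.01 with no limma 3-group call. In it 4 were higher and 2 lower at an unadjusted p under 0.05 (8.49% and 10.2% of all genes). Voom with 3 groups called RFC3 higher (0.12 in the limma fit) and POLE lower (-0.16 in the limma fit). Of all 13231 genes tested it called 147 higher and 295 lower.

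Of 30 genes of G2 and mitosis 2 were called higher in the 3-group fit and none lower (0.831% and 1.25% of all genes). HMMR, a spindle-associated protein, read 11.9, 11.3 and 10.9 scaled TPM with eGFP, 12.8, 12.7 and 13.2 with FL, and 13.4, 13.8 and 13.7 with dMTS. CCNB1, cyclin B1, read 57.7 in all 3 eGFP libraries, then 61.7, 64.1 and 61.9, then 68.03, 64.9 and 65.7. The rescue libraries lay above the controls in both, by 0.20 for HMMR (SE 0.04, limma adjusted p = 0.115, 3-group 0.0289) and 0.15 for CCNB1 (SE 0.03, limma adjusted p = 0.141, 3-group 0.0318). An unadjusted p under 0.05 was found in 20 of 30, all higher (66.7% against 8.49%), and 12 of 30 did not overlap the controls (5.56% of all genes). The median was 0.09, at 0.09 for FL and 0.11 for dMTS. MKI67, the Ki-67 proliferation antigen, differed by 0.11 (SE 0.13) with overlapping groups. CDKN1A, the p21 inhibitor of cyclin-dependent kinases and a p53 target, read 50.8, 53.7 and 54.7 with eGFP, 41.1, 40.5 and 41.2 with FL, and 43.1, 44.5 and 46.4 with dMTS. It was lower in all 6 rescue libraries and lowest with FL (-0.30, SE 0.05, limma adjusted p = 0.113, 3-group 0.0111). Of 22 p53 targets tested CDKN1A and BTG2 were called lower in the 3-group fit (1.25% of all genes), and the median was -0.05. At an unadjusted p under 0.05, 6 of 22 were lower (27.3% against 10.2% of all genes) and 1 of 22 higher (4.55% against 8.49%).

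S1PR3 and YPEL3 were lower in all 6 rescue libraries, with a difference between the forms whose 95% interval included 0 and stayed within 0.3 of it on the log2 scale. They were chosen in the 3-group fit. There the interval stayed within 0.3 of 0 in 86 of the 110 genes called higher and 102 of the 165 called lower. The limit therefore does not set S1PR3 and YPEL3 apart, and BTG2 also met both conditions (interval -0.04 to 0.15). S1PR3, a receptor for sphingosine 1-phosphate (chr9:88990863-89005155, plus strand), read 9.35, 8.92 and 8.40 scaled TPM with eGFP, 6.31, 6.28 and 7.33 with FL, and 6.09, 6.23 and 6.23 with dMTS. All 6 rescue libraries were lower, and FL 3 stood above the other 5. The log2 fold change was -0.42 (SE 0.05, limma adjusted p = 0.113, 3-group 0.0147), at -0.37 for FL and -0.46 for dMTS, with an interval of -0.05 to 0.22 for their difference. S1PR3 was called with the forms as a single group when FL 3 was left out (-0.45, limma adjusted p = 0.00668), and by voom on estimated reads (-0.48, limma-voom adjusted p = 0.0198). YPEL3 read 7.26, 8.26 and 8.46, then 6.03, 6.39 and 5.95, then 6.51, 5.98 and 5.58. Its forms overlapped each other and lay below the controls (-0.35, SE 0.05, limma adjusted p = 0.113, 3-group 0.0323, interval of the difference -0.13 to 0.17). In CDKN1A, H2BC12, GATA2, ADRA2A and HSP90B1 that interval was within the same limit but did not include 0. FL minus dMTS was -0.12 for CDKN1A, 0.17 for H2BC12, 0.17 for GATA2, 0.18 for ADRA2A and -0.19 for HSP90B1, each with unadjusted p under 0.05 and none called after adjustment.

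The dMTS mean lay further from eGFP than the FL mean in 99 of the 110 higher and 153 of the 165 lower genes, and OGDHL itself was higher with FL. The share over all genes is not given, so these counts do not set the called genes apart from the rest. The called genes were also selected on a contrast that includes the dMTS mean. Whether the level of OGDHL bears on the pattern was not tested. FL minus dMTS had an unadjusted p under 0.05 in 79 of the 110 and 129 of the 165, against 15% of all genes. The called genes have little spread within forms, which enters both contrasts, so these shares are not independent of the selection. The adjusted test of FL against dMTS called 1 gene of 13231 (0.00756%), the long noncoding RNA ENSG00000289913 (chr17:81392305-81393364). It read 4.60, 4.78 and 4.80 scaled TPM with eGFP, 4.66, 4.44 and 4.37 with FL, and 3.23, 2.96 and 2.98 with dMTS. FL overlapped the controls and dMTS was lower (FL minus dMTS 0.44, limma adjusted p = 0.0342).

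**Figure D3:**
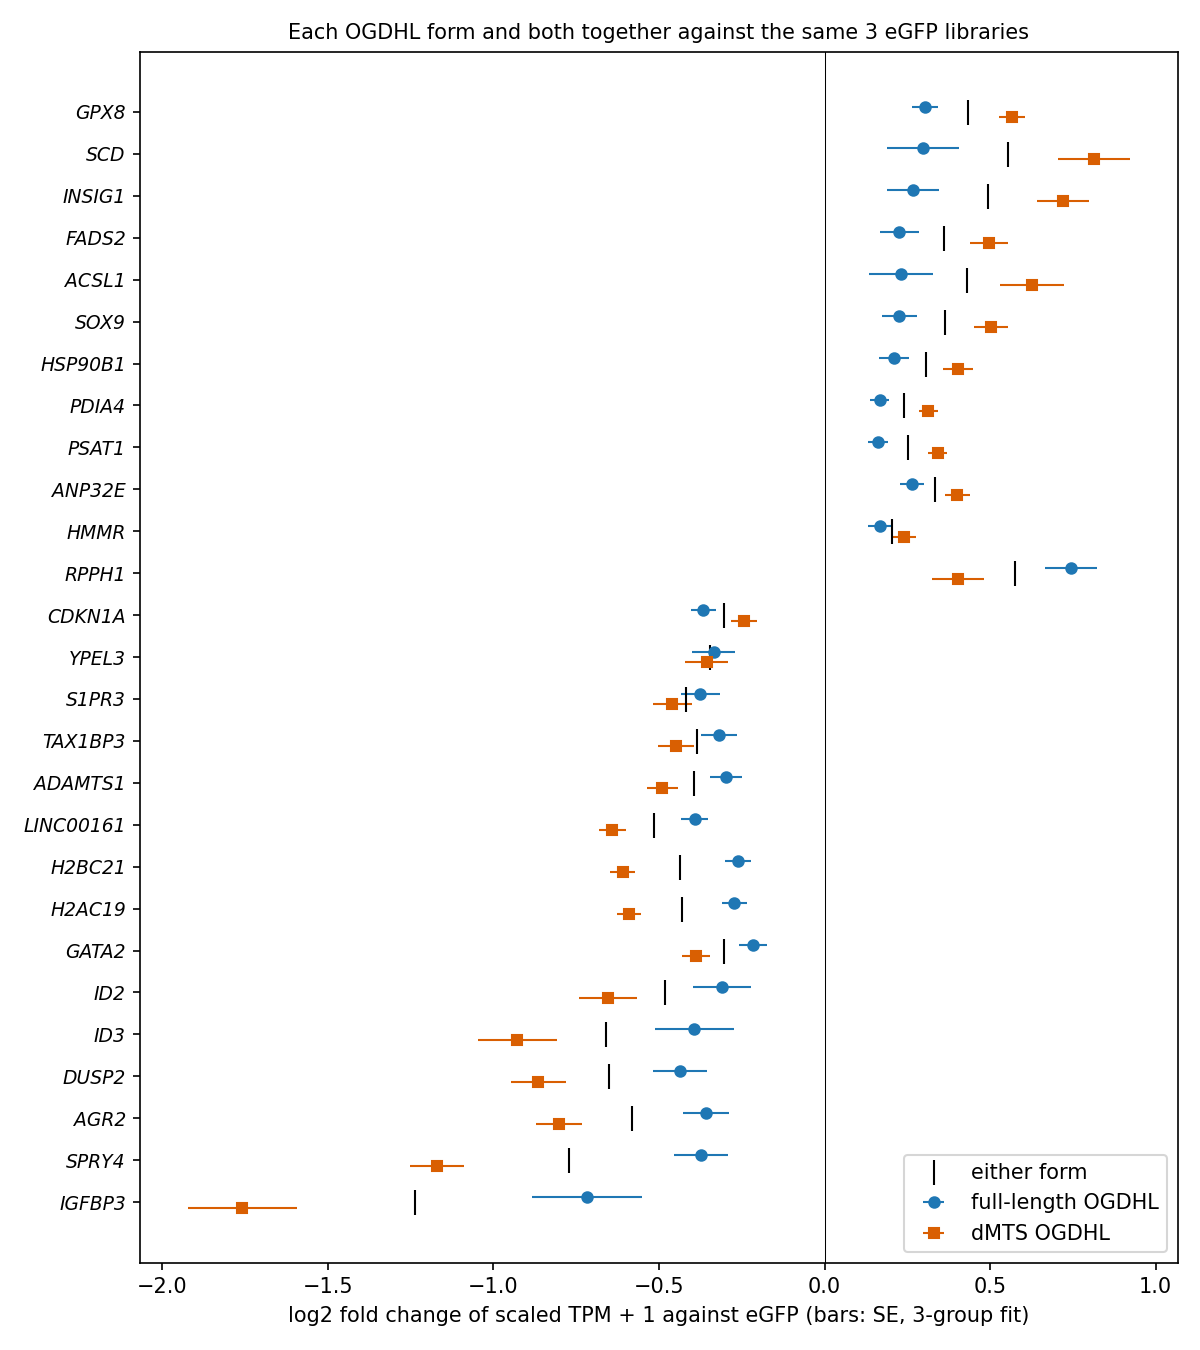
Log2 fold change of scaled TPM + 1 against eGFP for full-length OGDHL (circles), dMTS OGDHL (squares, both with SE from the 3-group fit) and their mean (bar), for 27 genes. IGFBP3 lies at -0.72 and -1.76, YPEL3 at -0.33 and -0.36, and both forms share the same 3 eGFP libraries.

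LINC00161 (chr21:28539318-28540355, plus strand) and GPX8 were among the 6 genes called in every left-out-library fit. LINC00161, a long noncoding RNA, read 68.7, 69.6 and 65.5 scaled TPM with eGFP, 50.7, 51.5 and 52.3 with FL, and 45.7, 41.4 and 42.7 with dMTS. Its groups were separate (-0.52, SE 0.08, limma adjusted p = 0.113, 3-group 0.00291). GPX8, a glutathione peroxidase family member of the endoplasmic reticulum, read 4.01, 3.97 and 4.09, then 5.08, 5.32 and 5.20, then 6.03, 6.68 and 6.61. It was the one called member of 29 glutathione, thioredoxin and NADPH genes (0.43, SE 0.08, limma adjusted p = 0.117, 3-group 0.00291). IL36RN, the interleukin 36 receptor antagonist, averaged 4.25 ± 0.109 (SD, n = 3) with eGFP and 3.04 ± 0.441 (SD, n = 6) with either form. AGR2, a disulfide isomerase relative expressed in luminal prostate cells, read 1.97, 1.95 and 1.82, then 1.30, 1.22 and 1.29, then 0.87, 0.58 and 0.57 (-0.58, SE 0.14, limma adjusted p = 0.148, 3-group 0.0102). GPER1 (-0.55), SAMD11 (-0.51), MICAL1 (-0.46) and P2RX2 (-0.46) were lower in all 6 rescue libraries with 3-group adjusted p of 0.0205, 0.0236, 0.0378 and 0.0151. SOX9, a transcription factor of epithelial progenitors, was higher (0.36, 3-group 0.0151), as was the tight junction gene CLDN8 (0.32, 0.0332).

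Small structural RNAs had the highest list median, 0.35 over 9 genes, which dropped to 0.03 without eGFP library 2. RPPH1, the RNA of RNase P, read 4.03, 4.43 and 4.28 scaled TPM with eGFP, 8.60, 7.40 and 7.40 with FL, and 5.81, 5.38 and 6.66 with dMTS (0.57, SE 0.12, limma adjusted p = 0.122, 3-group 0.0132). FL was the higher form here. RNU6-9, one of many near-identical U6 copies and so uncertain, read 0.12, 0.21 and 0 scaled TPM with eGFP and 1.58 to 7.21 with either form, and it passed the TPM minimum through the rescue libraries alone. RN7SL1 and RN7SL2 differed by 0.99 and 1.03 and RN7SK by -0.79, none of them called in either fit. These transcripts lack a poly(A) tail, and the libraries were enriched for polyadenylated RNA.

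**Figure D4:**
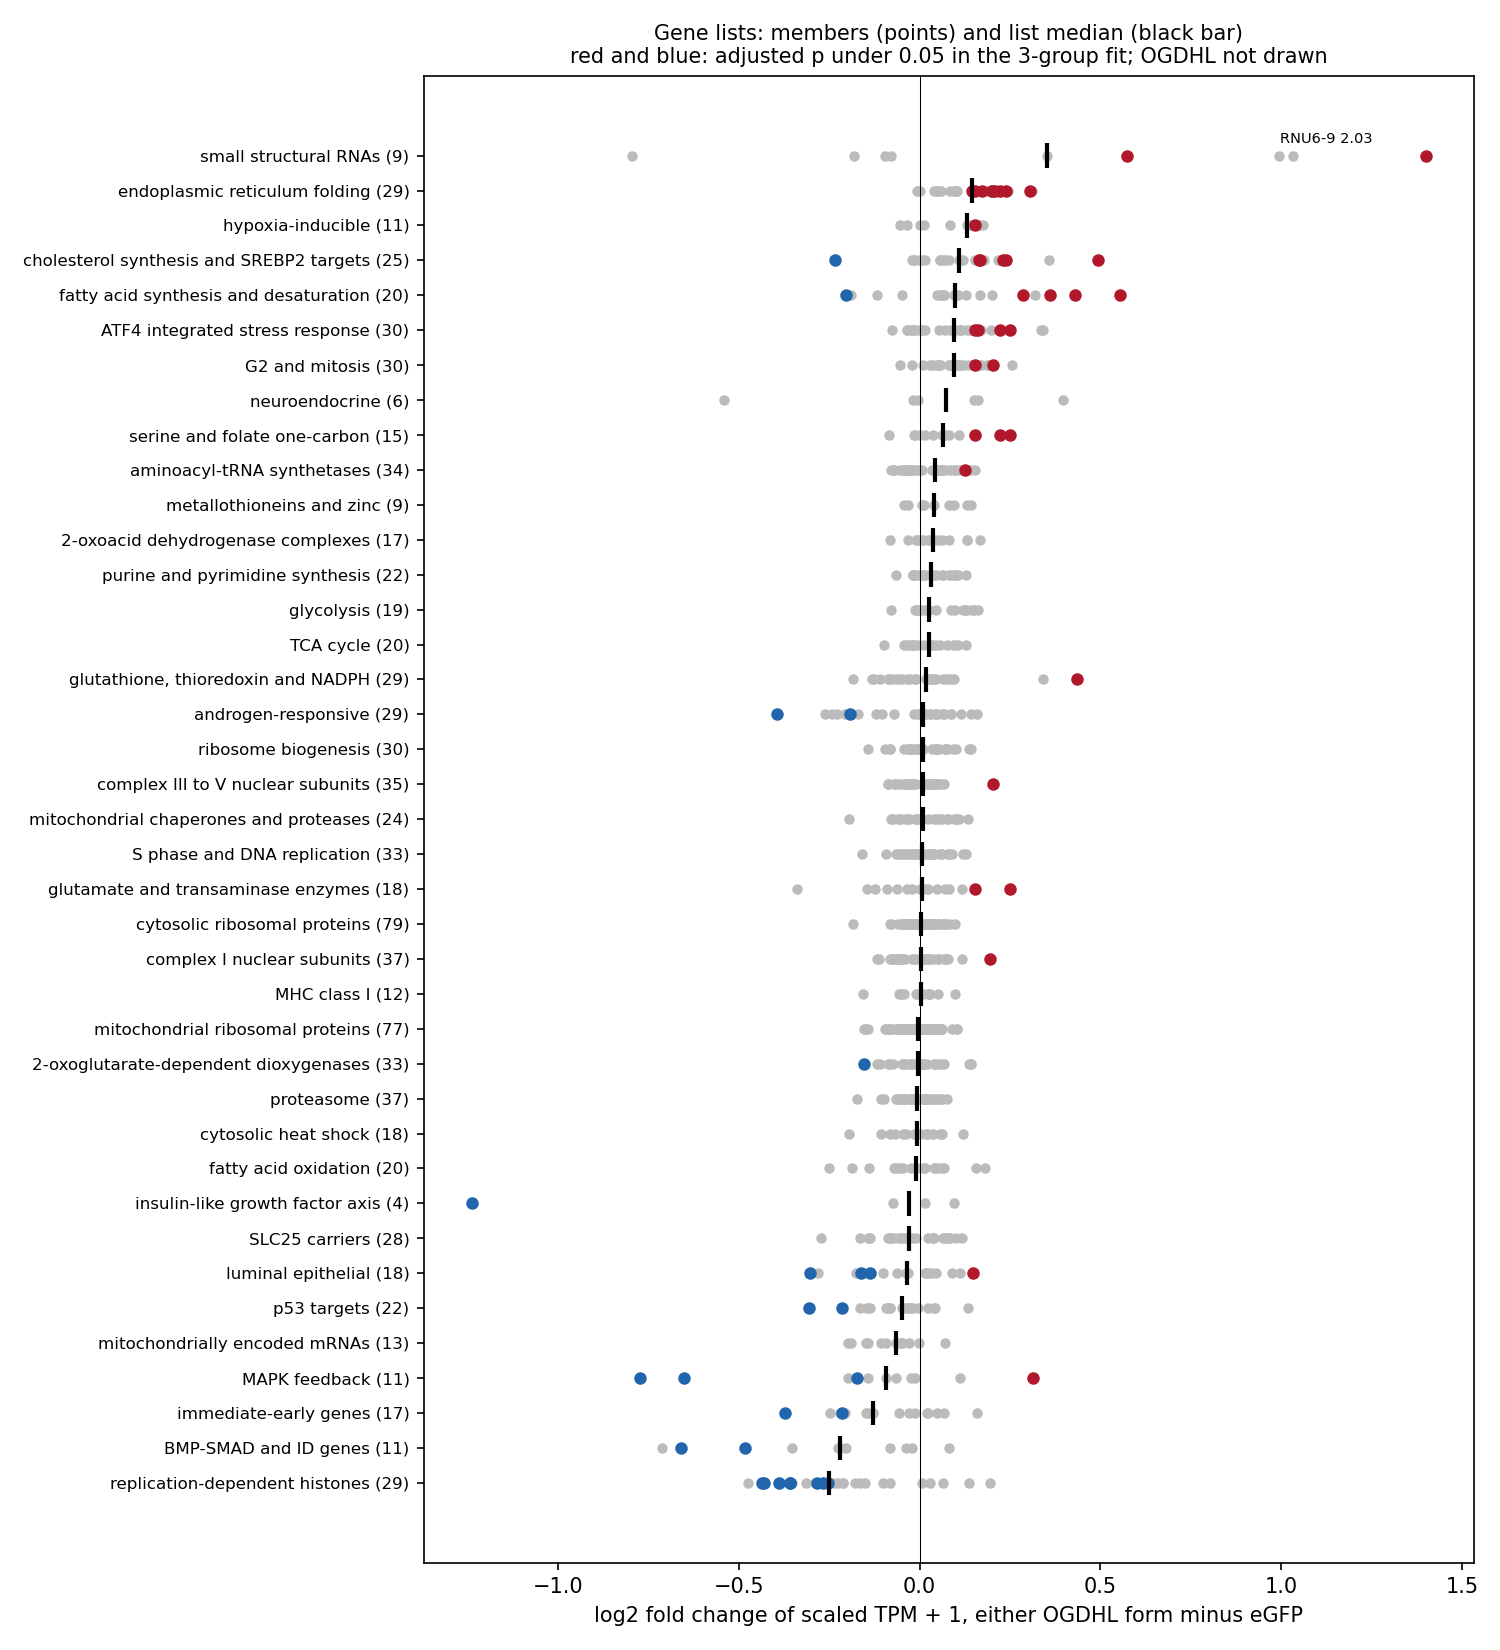
Log2 fold change of scaled TPM + 1, either form minus eGFP, of the members (points) and median (bar) of each gene list, with the number tested in brackets. Red and blue mark members called higher and lower in the 3-group fit, OGDHL is not drawn and RNU6-9 lies beyond the axis. Endoplasmic reticulum folding (median 0.14) and histones (-0.25) lie towards opposite ends, and the ribosomal and respiratory lists are centred near 0.

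The lists of TCA cycle genes, nuclear-encoded respiratory subunits and ribosomal proteins had medians near 0. This does not hold for all metabolic lists, since those of lipid synthesis (0.10 and 0.11) and of serine and folate (0.07) were higher. OGDH differed by 0.06 (SE 0.06), DHTKD1, the related 2-oxoadipate dehydrogenase, by 0.04 (SE 0.04), DLST by 0.01 (SE 0.03) and DLD by 0.08 (SE 0.04), none called. OGDH read 7.66, 7.78 and 7.40 scaled TPM with eGFP, 7.92, 7.20 and 7.98 with FL, and 7.47, 8.91 and 8.56 with dMTS, so the groups overlapped. Of 17 genes of the 2-oxoacid dehydrogenase complexes OGDHL alone was called, and of 20 TCA cycle genes limma called none, at a median of 0.03. Of the TCA genes 3 were higher and 1 lower at an unadjusted p under 0.05 (8.49% and 10.2% of all genes). Voom with 3 groups called ME1, malic enzyme, higher (0.13 in the limma fit), as it did 147 of all 13231 genes tested. One of 37 complex I subunits, NDUFA5 (0.20, 3-group 0.0196), and 1 of 35 genes of complexes III to V, CYCS or cytochrome c (0.20, 3-group 0.0323), were called higher in the 3-group fit, with medians of 0.00 and 0.01. Of all genes 0.831% were called higher in that fit. Neither limma fit called any of 79 cytosolic ribosomal proteins, 77 mitochondrial ribosomal proteins or 13 mitochondrially encoded mRNAs. Of these, 1, 8 and 0 had an unadjusted p under 0.05 in either direction, as did 18.7% of all genes. The median of the last list was -0.06, at 0.01 for FL and -0.15 for dMTS. Among 33 dioxygenases that use 2-oxoglutarate, KDM6B, a histone H3 demethylase, was called lower in the 3-group fit (-0.15, 0.0284). There 1.25% of all genes were called lower.

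Of 29 androgen-responsive genes 2 were called lower and none higher in the 3-group fit. KLK3, which encodes PSA, read 1148, 1188 and 1263 scaled TPM with eGFP, 1130.2, 1150.04 and 1085 with FL, and 1129.9, 1017 and 1111 with dMTS. The groups overlapped (-0.12, SE 0.05, limma adjusted p = 0.242). TMPRSS2 differed by 0.00 (SE 0.06) and FKBP5 by 0.04 (SE 0.04). The 2 called lower were ADAMTS1 (-0.39, 3-group 0.0102) and PMEPA1 (-0.19, 3-group 0.0318). In this list 10 of 29 had an unadjusted p under 0.05 and a negative difference (34.5% against 10.2% of all genes) and 3 a positive one (10.3% against 8.49%), while the median was 0.01. Voom with 3 groups called 7 of the 29 lower and 1 higher, against 295 lower and 147 higher of all 13231 genes tested. Of 18 luminal genes GATA2 (-0.30, 3-group 0.0143), GRHL2 (-0.16, 0.0458) and ELF3 (-0.14, 0.0361), all transcription factors of luminal epithelium, were called lower there and EPCAM higher (0.15, 0.0323), where 1.25% and 0.831% of all genes were called. At an unadjusted p under 0.05, 8 of 18 were lower (44.4% against 10.2%) and 2 of 18 higher (11.1% against 8.49%).

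Below the TPM minimum, voom on reads estimated from TPM and gene span called 2 further long noncoding RNAs with the forms as a single group, among 24068 genes. ENSG00000291222 (chr3:75356437-75362268) had 0, 0.2 and 0 estimated reads with eGFP, 20.3, 13 and 39.5 with FL, and 25.4, 39.4 and 21.3 with dMTS (limma-voom adjusted p = 0.00615). ENSG00000239945 (chr1:89551-91105) had 32.7, 18.1 and 17.8 with eGFP and at most 7.2 with either form (limma-voom adjusted p = 0.0189). Both are separated completely between the 6 and the 3 libraries, at few reads.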

How the data were processed

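Stranded mRNA libraries (read pairs of 50 bases) of 9 samples were sequenced, per the labels' protocols. The submitters' processing notes list STAR and the build GRCh38, with no version of STAR; which quantifier and annotation made the table is not given in the sources used here. The authors deposited TPM for 36650 genes, 9835 without a symbol and 94 at 0 throughout. The length in the table equals the genomic span for all genes. Depth was estimated from the step of low values: 71.8% to 74.4% of values under 20 reads were within 0.01 of whole reads, so reads are estimates and no count test was the main result.

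Each library was rescaled by the median log2 ratio over genes with TPM of at least 1 in at least 3 libraries. limma 3.58.1 (R 4.3.3), with a variance trend, compared log2(scaled TPM + 1) between the 6 rescue and 3 eGFP libraries, with Benjamini-Hochberg adjustment over 13231 genes and a threshold of 0.05. Alternatives were 3 groups, other scalings, pseudocounts (0.1 and 5), filters, a replicate block, array weights, voom and leaving out each library. Fits with a library left out assume that a group reduced to a pair varies like the others. The comparison and its 43 gene lists were chosen with earlier results of these data known. Named genes were fixed genes, those of each list and those with the largest differences among called genes; since only OGDHL was called, the same rule was applied to the 3-group fit after values were seen. Members of each list were counted over tested genes. The fit was tested on simulated data. Promoter sequences are from RefSeq (GRCh38.p14). The result of 1 gene is not reported here.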

Additional observations from a re-analysis of the deposited data

Results flagged for a closer look

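Among 103 measures examined for a library far from the others of its group, 2 stood out, where chance gives about 1 in 20. dMTS library 2 had 54.9% of TPM in mitochondrially encoded genes, against 62.9% to 65.7% in the other 5 rescue libraries. FL library 3 had 7.33 scaled TPM of S1PR3, against 6.09 to 6.31 in the other 5. The long noncoding RNA ENSG00000289913 differed between the forms under the same control (FL minus dMTS 0.44, limma adjusted p = 0.0342), the single such gene among 13231.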

How the results depend on the processing

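With the forms as a single group, the count of called genes was 1 and moved to 275 with 3 groups, 5 without a filter, 4 by voom and 1496 with array weights (computed gene by gene, because the other method did not converge), and was 1 to 2 with a library left out. The second gene was BBLN without eGFP 1 (-0.30, limma adjusted p = 0.0367) and S1PR3 without FL 3. Beside OGDHL the genes without a filter were ENSG00000290162 and Metazoa_SRP, and, near 0 TPM, ENSG00000227006 and ENSG00000293527. The 3-group count of 275 moved to 11 on deposited TPM, 136 without a filter, 11 with the replicate block, 5306 with array weights, 1 with a log2 fold minimum of 0.2 and 638 by voom, and was 6 to 1396 with a library left out. FL against dMTS gave 1 gene and moved to 0 on deposited TPM, with a mean of at least 5 TPM, with the 6 rescue libraries alone, with the replicate block and with the fold minimum, where 717, 962, 1600, 1549 and 136 genes had an unadjusted p under 0.05. It moved to 2 with a pseudocount of 5 (SPRY4 was added), 6 without a filter, 14 by voom and 4028 with array weights, and was 0 to 912 with a library left out, the 912 without dMTS 1. Array weights gave eGFP 2 a weight of 7.24 and dMTS 2 one of 0.499. The causes of these shifts were not tested.

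OGDHL was called under every setting run, at a log2 fold change of 4.71 with a pseudocount of 5 to 7.03 by voom and 6.02 to 6.36 with a library left out. The mitochondrial share kept an exact permutation p above the threshold in every setting, with differences of -2.04 to 0.404 percentage points when a library was left out. For the named genes 2113 results kept their side of the threshold, 160 passed it under an alternative and 0 reversed. Of the list medians 48 moved by more than their spread. On deposited TPM the median of all genes was 0.03, and the small negative medians of the luminal, SLC25 carrier and insulin-like growth factor lists became 0.00. Correlations of same-numbered libraries across groups ran from -0.46 to 0.09, and those of differently numbered libraries from -0.46 to 0.52. With so wide a range for both, they cannot settle whether the numbers pair the samples. The replicate block called 1 gene with a single rescue group.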
